A study of Mus musculus with 72 samples.

Results

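Liver RNA taken just after lights-off was compared between *Scp2* KO and WT mice. The comparison used the arrays whose labels give ZT12 or ZT14, where ZT0 is lights on and ZT12 is lights off. These are 12 of the 72 arrays of the series, 6 KO and 6 WT, with 3 of each genotype at each time, and the other 60 arrays cover 10 further time points. The paper describes the KO mice as lacking the whole *Scp2* locus, which encodes both SCP2 and SCPx. The deletion is present in every cell from birth. The WT controls were C57Bl/6J mice of the commercial supplier that also provided the KO line, which had been backcrossed to C57Bl/6. All animals were males of 10 to 12 weeks, kept in 12 h of light and 12 h of dark and fed only at night in the days before they were killed, so ZT12 and ZT14 also mark the start of the daily meal. Each labelled sample is an individual mouse, and each array is one Illumina hybridisation of total liver RNA. Signals are given as log2 of the normalised intensity and differences as KO minus WT on that scale, with 6 arrays a genotype and the standard error (SE) of the fit. The headings of the signal table number the arrays in sets, and an array is named here by its genotype, set and time (WT sets 6, 9 and 10, KO sets 4, 5 and 6).

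SCP2 is a small protein that carries sterols and acyl-CoAs, and SCPx is the peroxisomal thiolase that shortens the side chain of bile acid precursors and breaks down branched fatty acids such as phytanic acid. In mouse liver, lights-off is the change from fasting to feeding. Insulin and the lipogenic programme rise, PPARα-driven fatty acid oxidation declines, ribosome production is turned up, and the clock repressors *Per1* and *Per2* approach their peak. Cells that lack sterol release SREBP2 from the endoplasmic reticulum, which turns on the genes of cholesterol synthesis, and fatty acids that accumulate can activate PPARα.

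The targeted gene was checked first. A pair of *Scp2* probes fell from 12.55 to 13.11 in WT to 5.90 to 6.11 in KO, and from 11.93 to 12.42 to 5.74 to 5.95. The probe with the highest mean of the 4 over all arrays fell only from 11.22 to 12.05 to 9.63 to 10.13, and the dimmest was at 5.66 to 5.89 in both genotypes. Every KO array was below every WT array on the first 3 probes. Why the probe with the highest mean kept a signal of 9.63 to 10.13 in KO was not tested. Median signals of the 12 arrays lay between 98.2 and 107 before normalisation. Of the liver markers, *Apoa1* was at 13.85 to 14.10 on all 12 arrays and *Ttr* at 13.61 to 13.97, while the probe for *Alb* was dim everywhere, at 5.88 to 6.24.

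One WT array at ZT12, that of set 6, stood apart. It was singled out by its *Lcn2* and *Saa1*, so its values for these genes restate how it was chosen. Other acute phase genes are not independent of that choice. *Lcn2*, a secreted iron-siderophore binder of the acute phase, was at 13.97 on it and at 6.42 to 7.39 on the other 5 WT arrays. *Saa1*, a serum amyloid A of the acute phase, was at 10.94 against 5.95 to 6.52, *Saa2* at 10.55 against 5.84 to 6.16, and *Orm2*, an orosomucoid, at 14.04 against 8.29 to 9.15. The mean of the 34 measured acute phase genes was 10.87 on that array, against 8.85 to 9.05 on the other WT arrays and 8.82 to 9.0 on the KO arrays. The 11 measured neutrophil markers, led by the granule proteins *S100a8* at 11.79 and *S100a9* at 10.02, had a mean of 7.22 on it, against 5.91 to 6.0 and 5.88 to 5.97. The 12 Kupffer cell and macrophage markers had a mean of 8.24 against 6.78 to 7.45 and 6.97 to 7.30, whereas the 7 hepatocyte markers, at 11.74, were within the range of the other arrays. The same array was the lowest of the 12 for the means of the PPARα targets, 8.02, and of the bile acid genes, 9.14, and was the highest WT array for the cholesterol genes, 8.45. Against the mean of the other 2 WT arrays at ZT12, 33 genes were over 4-fold higher on it and 11 over 4-fold lower. Each result is therefore given with and without this array. In whole liver, a change in the number of cells of a type and a change of RNA per cell cannot be told apart.

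**Figure D1:**
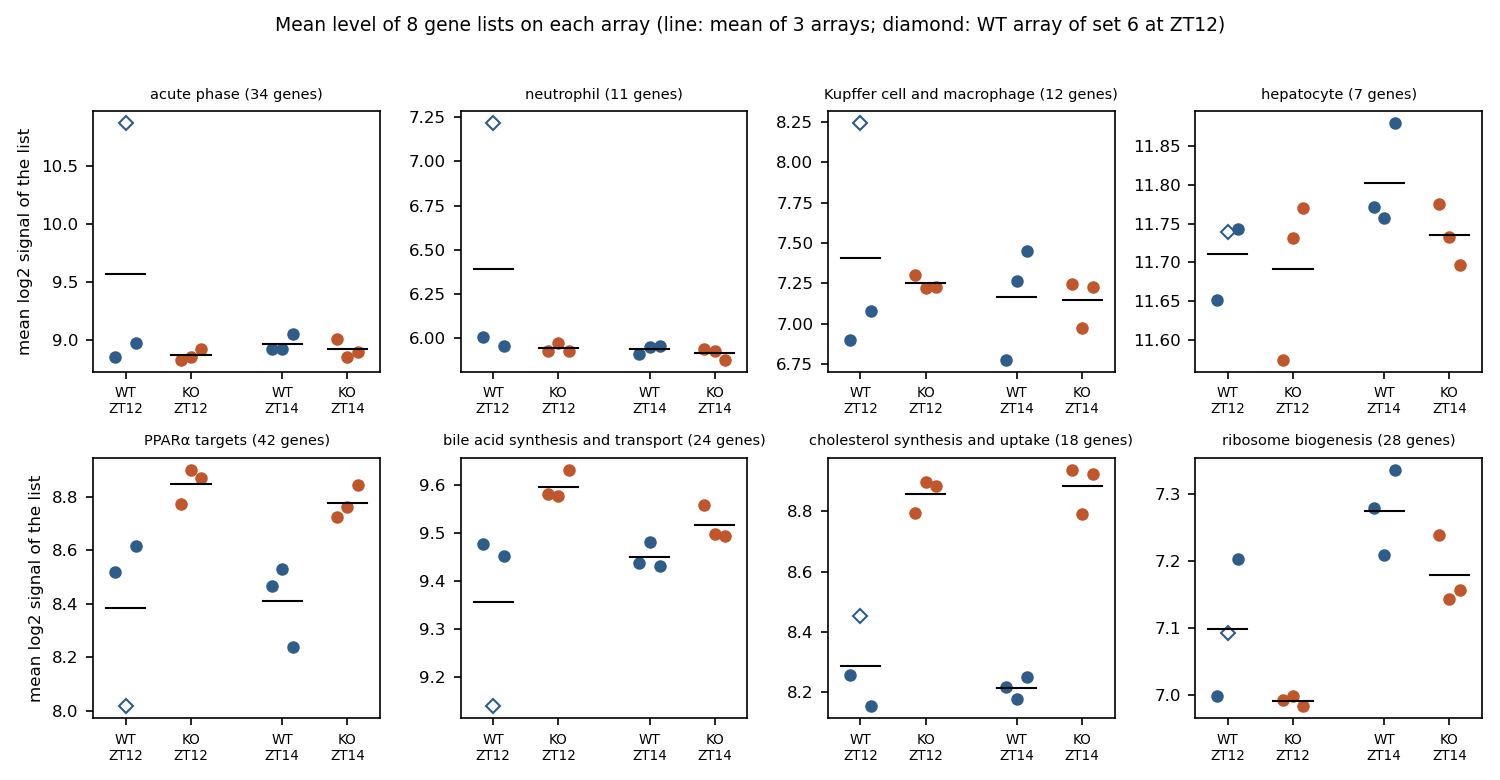
Mean log2 signal of 8 gene lists on each of the 12 arrays, by genotype and time, with a line at the mean of 3 arrays and an open diamond for the WT array of set 6 at ZT12. That array reaches 10.87 for the acute phase list and 7.22 for the neutrophil list, and is the lowest for the PPARα and bile acid lists.

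With all 12 arrays and time as a covariate, 201 of 16593 genes were higher in KO, or 1.21% of all genes tested, and 117 were lower, or 0.705% (limma, Benjamini-Hochberg adjusted p under 0.05). Without the WT array of set 6, 265 genes were higher (1.6%) and 223 were lower (1.34%). There were 306 genes past the test both with and without it, 195 higher (1.18%) and 111 lower (0.669%), while 12 were called only with it and 182 only without it. The number of lower genes also fell to between 69 and 74 without the KO array of set 5 at ZT12, that of set 6 at ZT12 or ZT14, or the WT array of set 10 at ZT14, and the number of higher genes stayed between 134 and 265 when each of the 12 arrays was left out in turn. At ZT12 alone, with 3 arrays a genotype, 12 genes were higher and 4 lower, or 53 and 25 without the WT array of set 6. At ZT14 alone 106 were higher and 75 lower. With arrays scaled to their medians instead of quantile normalised, 98 genes were higher and 42 lower. Of 72 differences of named genes, 37 then lost their call, among them those of *Lpin1*, *Wfdc2* and *Tmem254a*. The 72 include differences that had no call to lose, such as those of *Per1* and *Ppara*. Of the 306 genes, 32 lie on chromosome 4, the chromosome of *Scp2*, which is 3.31% of its 968 measured genes beside 1.84% over all genes. A stretch of chromosome 4 that was carried along with the deleted allele cannot be told apart from the effect of the deletion for those genes.

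The genes of cholesterol synthesis were higher in KO. Of 18 measured members of a list of 25, 11 rose and 0 fell with all arrays, and 13 rose and 0 fell without the WT array of set 6, beside 1.21% and 1.6% of all genes that were higher. Their median difference was 0.57 (0.62 without that array), beside 0.00 over all genes, and it was 0.60 with median scaling. *Hmgcs1*, the cytosolic HMG-CoA synthase that supplies the mevalonate pathway, was at 11, 11.21 and 12.61 (lowest, median and highest of 6 WT arrays) and at 12.52, 13.01 and 13.17 in KO. The genotypes overlapped by the WT array of set 6 alone. The difference was 1.38 ± 0.18 (SE, adjusted p = 0.0017), or 1.55 without it (adjusted p = 1.17e-05).

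*Fdps*, the farnesyl diphosphate synthase, was at 10.66, 10.92 and 11.22 in WT and at 12.01, 12.17 and 12.40 in KO, a difference of 1.24 ± 0.10 (adjusted p = 3.25e-05). *Msmo1*, a sterol C4-methyl oxidase, was at 9.42, 10.03 and 10.31 in WT and 10.99, 11.27 and 11.44 in KO, a difference of 1.30 ± 0.12 (adjusted p = 0.00013). In both genes the lowest KO array stood above the highest WT array. *Lss*, the lanosterol synthase, rose by 0.86 ± 0.05, *Cyp51*, the lanosterol demethylase, by 0.79 ± 0.08, and *Hsd17b7*, a sterol 3-keto reductase, by 0.98 ± 0.12, all without overlap. *Sqle*, the squalene epoxidase, passed the test only without the WT array of set 6, on which it was at 10.07 against 8.34 to 8.78 on the other 5, and its difference was then 0.89 (adjusted p = 0.000244) against 0.61 with all arrays (adjusted p = 0.323). *Srebf2*, which encodes the transcription factor of the pathway, differed by 0.24 (adjusted p = 0.102) and by 0.30 without that array (adjusted p = 0.00222).

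The sterol genes were higher in KO in the rest of the day as well. Over the other 10 time points the list had a median difference of 0.77. The difference in the window was the smaller one for most members, with a median of -0.19 for the window minus the rest (-0.18 without the array of set 6) and 3 of 18 members above 0 (5 without it), but 0 of the 18 passed the test of the difference between the window and those time points in either direction, with or without the array. By time, the median difference of the list was 0.75 at ZT12 (0.55 with the WT array of set 6) and 0.65 at ZT14, within the range of 0.43 to 1.06 of the other time points. In WT the mean of *Hmgcs1* was at 10.87 to 12.70 over the day, with 11.04 at ZT14 and its lowest value at ZT16, while the KO mean reached its lowest value, 12.73, at ZT14.

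Promoter sequences are shown for a pair of the sterol genes that rose, because a shared motif was found in the list. The windows run from 250 bases before to 50 bases after the annotated start, from RefSeq on build GRCm38.p6, and capitals mark each match to one of 5 motifs searched on both strands. These were the CCAAT box (CCAAT), the core of a sterol regulatory element (TCACNCCAC), the E-box of the clock activators (CACGTG), a D-box (TTANGTAA) and a TATA box (TATAAA). None of the 5 contains another.
*Hmgcs1* promoter, chr13:119690101-119690400, plus strand: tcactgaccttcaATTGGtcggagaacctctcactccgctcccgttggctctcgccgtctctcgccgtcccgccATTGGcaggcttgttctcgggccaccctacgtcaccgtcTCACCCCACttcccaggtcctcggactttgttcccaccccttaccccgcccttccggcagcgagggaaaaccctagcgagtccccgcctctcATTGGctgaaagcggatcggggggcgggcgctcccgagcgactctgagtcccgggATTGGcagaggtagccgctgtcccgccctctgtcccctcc
*Msmo1* promoter, chr8:64733529-64733828, minus strand: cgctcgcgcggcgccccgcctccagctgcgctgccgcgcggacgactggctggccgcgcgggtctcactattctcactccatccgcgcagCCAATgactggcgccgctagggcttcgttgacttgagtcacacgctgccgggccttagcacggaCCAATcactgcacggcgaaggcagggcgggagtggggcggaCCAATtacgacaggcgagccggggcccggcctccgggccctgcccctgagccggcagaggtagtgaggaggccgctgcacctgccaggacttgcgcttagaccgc
A CCAAT box stood in at least 1 window of 15 of the 15 sterol genes matched by symbol, beside 37.4% of all 32851 windows of this length. Such shares count windows and not genes, which can have several. The CCAAT box was also found in 17 of 19 matched genes of endoplasmic reticulum folding and in 15 of 20 clock genes. It was found in 18 of 35 PPARα targets and 5 of 28 acute phase genes. A high share of CCAAT boxes was thus not particular to the sterol genes. The sterol element was found in 1 of the 15 sterol genes, *Hmgcs1*, where it starts 137 bases before the start, and in 1.24% of all windows. A match is a description of the sequence and was not tested for binding.

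PPARα targets were higher as well. Of 42 measured genes of a list of 48, 11 rose and 0 fell with all arrays, and 15 rose and 0 fell without the WT array of set 6, beside 1.21% and 1.6% of all genes. The median difference was 0.34 with all arrays, 0.27 without that array and 0.37 with median scaling, and 0.39 over the other 10 time points. For the window minus the rest the median was 0.01 with all arrays, with 21 of 42 members above 0. Without that array it was -0.08, with 13 above 0, and 0 members passed that test in either setting. The median at ZT12 was 0.35 with that array and 0.165 without it, then the lowest of the 12 time points. *Cyp4a14*, a fatty acid ω-hydroxylase, was at 6.48, 8.91 and 10.47 in WT and at 11.13, 11.81 and 12.14 in KO. The lowest WT array was that of set 6, and without it the WT arrays still ran from 7.34 to 10.47, all below KO. Its difference was 3.10 ± 0.56 (adjusted p = 0.0132), the largest rise among genes past the test in both settings, and 2.59 without that array (adjusted p = 0.00202).

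*Ehhadh*, the peroxisomal bifunctional enzyme of β-oxidation, was at 7.05, 7.50 and 7.73 in WT and at 8.25, 8.62 and 9.31 in KO, and rose by 1.25 ± 0.17 (adjusted p = 0.00247). *Aldh3a2*, the fatty aldehyde dehydrogenase that also handles phytol, rose by 1.01 ± 0.20 (0.80 without the array), and *Pex11a*, which promotes division of peroxisomes, by 0.89 ± 0.13. Neither overlapped between the genotypes, and the call of *Aldh3a2* was lost without the KO array of set 5 at ZT12 (adjusted p = 0.0554). *Cpt2*, the inner mitochondrial carnitine palmitoyltransferase, rose by 0.47, *Acadm*, the medium-chain acyl-CoA dehydrogenase, by 0.41 and *Acadvl*, the very long chain one, by 0.33. Of 17 measured genes of mitochondrial β-oxidation and ketogenesis, 3 rose and 0 fell with all arrays, and 4 rose without the array of set 6. Over all genes, 1.21% were higher with all arrays and 1.6% without that array. With median scaling *Cyp4a14* and *Ehhadh* kept their calls, while those of *Aldh3a2*, *Pex11a*, *Cpt2*, *Acadm* and *Acadvl* were lost (adjusted p of 0.12, 0.0508, 0.0725, 0.11 and 0.0743). *Ppara* itself differed by 0.09 (adjusted p = 0.743). *Cyp4a12b*, a second ω-hydroxylase, rose by 1.72 ± 0.30 and *Hyi*, a hydroxypyruvate isomerase, by 1.56 ± 0.16. *Cyp4a14* and *Cyp4a12b* lie 44 and 43 measured genes from *Scp2* on chromosome 4, *Hyi* 96 and *Cpt2* 3. Whether these probes also bind near-identical Cyp4a copies was not tested.

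In bile acid synthesis, 6 of 24 measured genes rose and 1 fell with all arrays, the fall being *Scp2* itself, beside 1.21% and 0.705% of all genes, and 6 rose and 2 fell without the array of set 6, beside 1.6% and 1.34%. *Cyp7a1*, the rate-limiting enzyme of the classical pathway, was at 10.19, 10.74 and 11.51 in WT and at 11.30, 11.75 and 12.22 in KO. The genotypes overlapped in the pooled arrays, although at each time the KO arrays were above the WT arrays, and the difference was 0.92 ± 0.11 (adjusted p = 0.00075). Its call was lost at ZT12 alone and in a fit with no time term. In a model of all 24 groups without the array of set 6 it was lost too (0.87, adjusted p = 0.0668). *Cyp8b1*, the sterol 12α-hydroxylase that sets the share of cholic acid, was at 10.42, 11.76 and 12.05 in WT and at 12.65, 12.87 and 13.07 in KO, without overlap. It rose by 1.28 ± 0.22 (adjusted p = 0.0114), or by 1.03 without the array of set 6 (adjusted p = 9.56e-06). Against the rest of the day its difference was larger in the window by 0.67 (adjusted p = 0.0387), but by 0.43 without that array (adjusted p = 0.115). *Cyp7b1*, the oxysterol 7α-hydroxylase, rose by 1.15 ± 0.26 and *Hsd3b7*, which acts after both hydroxylases, by 0.56 ± 0.10, while *Abcg5*, one subunit of the canalicular sterol exporter, rose by 0.31 ± 0.06. The calls of *Cyp7b1* and *Abcg5* were lost on leaving out any one of 6 and 7 arrays other than that of set 6, with adjusted p up to 0.11 and 0.0645. With median scaling the calls of *Cyp8b1*, *Cyp7b1*, *Hsd3b7* and *Abcg5* were lost.

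**Figure D2:**
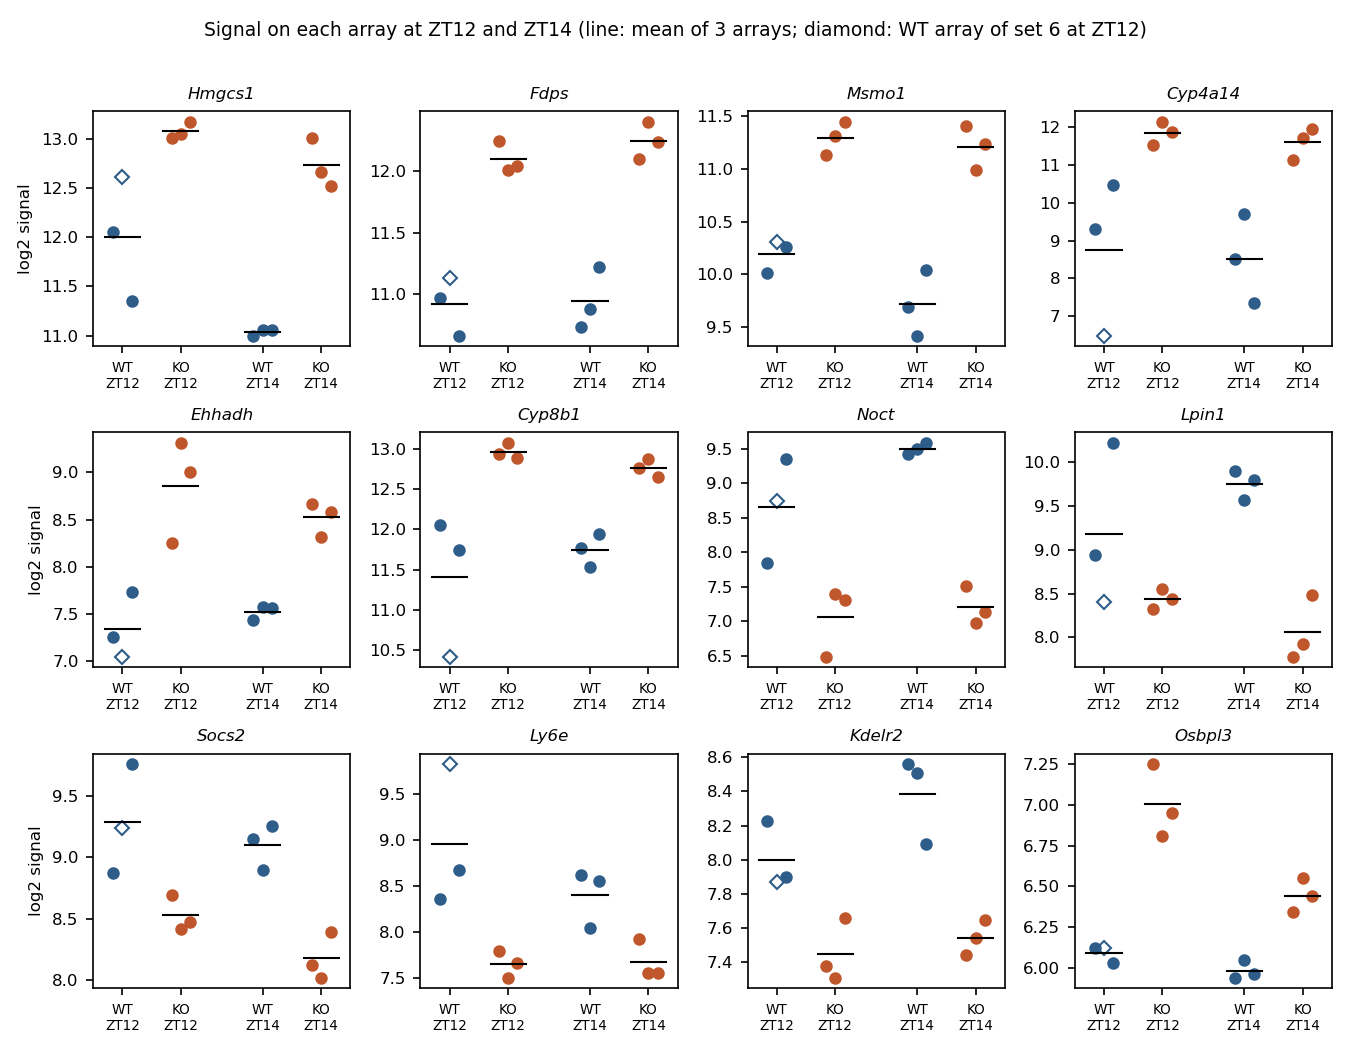
Log2 signal of 12 genes on each of the 12 arrays, by genotype and time, with a line at the mean of 3 arrays and an open diamond for the WT array of set 6 at ZT12. The KO arrays lie above the WT arrays for *Fdps*, *Msmo1*, *Cyp4a14*, *Ehhadh*, *Cyp8b1* and *Osbpl3* and below them for *Noct*, *Socs2*, *Ly6e* and *Kdelr2*, while for *Hmgcs1* and *Lpin1* the diamond is the only WT point to reach the KO values.

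The other large rises were *Clstn3*, a calsyntenin, and *Moxd1*, a monooxygenase of unsettled substrate. *Clstn3* was at 6.20, 6.32 and 6.89 in WT and at 7.16, 7.81 and 8.24 in KO, a difference of 1.33 ± 0.16, while its second, dimmer probe differed by -0.07. *Moxd1* was at 5.85 to 5.89 on 5 WT arrays, at 7.10 on that of set 6 and at 6.86 to 8.48 in KO. Its difference was 1.61 ± 0.30 with all arrays and 1.83 without that array, and a second probe rose too, by 0.93. The WT values lie at the dim end of the array, where the scale is compressed, so these sizes are not exact.

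The largest falls past the test in both settings were of *Noct*, *Scp2*, *Bsdc1*, *Lpin1*, *Ly6e*, *Wfdc2*, *Cish*, *Socs2*, *Kdelr2* and *Tmem254a*. *Noct*, which encodes nocturnin, a rhythmic NADPH phosphatase, was at 7.85, 9.38 and 9.58 in WT and at 6.49, 7.22 and 7.51 in KO, without overlap. It fell by 1.94 ± 0.24 on the log2 scale (adjusted p = 0.00127), but its second probe differed by -0.05 (adjusted p = 0.97 over all named probes). *Lpin1*, the phosphatidate phosphatase of triglyceride synthesis, was at 8.40, 9.68 and 10.22 in WT and at 7.78, 8.38 and 8.55 in KO. The WT array of set 6 was the lowest WT array and the only one within the KO range. The fall was 1.22 ± 0.27 on the log2 scale (adjusted p = 0.0443), and the difference without that array was -1.45 (adjusted p = 0.00159). Leaving out any one of 10 other arrays ended the call, with adjusted p up to 0.111. The other, dimmer probes of *Lpin1* differed by -0.05 and -0.004 (adjusted p = 0.829 and 0.991 over all named probes).

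*Socs2* and *Cish*, feedback inhibitors of growth hormone signalling through STAT5, were both lower in the fit of the 12 arrays. *Socs2* was at 8.87, 9.20 and 9.76 in WT and at 8.02, 8.40 and 8.69 in KO, without overlap, and fell by 0.85 ± 0.13 on the log2 scale (adjusted p = 0.00459). *Cish* differed by -0.94 ± 0.16 (adjusted p = 0.00885) with overlap in the pooled arrays, because in both genotypes the ZT14 arrays were lower than the ZT12 arrays. Over the other 10 time points *Socs2* differed by 0.11 and *Cish* by -0.60, but neither passed the test of the window against the rest (adjusted p = 0.416 and 0.92). In that model of the 24 groups the window differences of *Socs2* and *Cish* did not pass either (adjusted p = 0.278 and 0.436 with all arrays, 0.359 and 0.562 without the WT array of set 6), and the call of *Cish* was lost at ZT14 alone and in a fit with no time term. *Kdelr2*, a receptor that returns chaperones to the endoplasmic reticulum, differed by -0.70 ± 0.10, from 7.87 to 8.56 in WT to 7.31 to 7.66 in KO. *Bsdc1*, 227 measured genes from *Scp2* on chromosome 4, differed by -1.25 ± 0.06 with a KO range of 6.35 to 6.73 against 7.71 to 7.88.

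*Ly6e*, an interferon-inducible surface protein, differed by -1.02 ± 0.22 and *Wfdc2*, a secreted protease inhibitor of epithelia, by -0.98 ± 0.22. For both, the array of set 6 was the highest WT array, at 9.83 and 8.71, and without it the differences were -0.79 (adjusted p = 0.00163) and -0.75 (adjusted p = 0.00123). With it kept, leaving out one of 8 other arrays ended the call of *Ly6e* and one of 9 that of *Wfdc2*, with adjusted p up to 0.0977 and 0.108. The second, dimmer probe of *Wfdc2* differed by -0.07 (adjusted p = 0.521 over all named probes). Of 32 measured interferon response genes 2 fell with all arrays, *Ly6e* and *Ifit3*, a call lost for *Ifit3* on leaving out any one of 7 arrays. Without the array of set 6, 3 fell. Over all genes, 0.705% were lower with all arrays and 1.34% without that array. The mean of the array of set 6 over the list was 7.12 against 6.72 to 6.90 on the other WT arrays. *Tmem254a*, a member of a set of close copies of a membrane protein gene, differed by -0.68 ± 0.13.

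In fatty acid synthesis, 4 of 23 measured genes rose and 1 fell with all arrays, and 4 rose and 2 fell without the array of set 6. Over all genes the shares were 1.21% and 0.705% with all arrays, and 1.6% and 1.34% without that array. The risers were *Acss2*, the cytosolic acetyl-CoA synthetase (0.83 ± 0.16), *Elovl5*, an elongase of polyunsaturated fatty acids (0.51 ± 0.07), *Slc25a1*, the mitochondrial citrate carrier (0.42 ± 0.06) and *Fads1*, the Δ5-desaturase (0.27 ± 0.05). The second, dimmer probes of *Slc25a1* and *Acss2* differed by 0.12 and 0.20 (adjusted p = 0.769 and 0.191 over all named probes). *Lpin1* fell, and *Pklr*, the liver pyruvate kinase, fell without the array of set 6 only (-0.83, adjusted p = 0.00108). *Srebf1* differed by 0.03 (adjusted p = 0.972). Among 24 genes of endoplasmic reticulum folding, *Pdia6* (0.49) and *P4hb* (0.26), both disulfide isomerases, rose and *Pdia4*, another, differed by -0.52 (adjusted p = 0.0134). The calls of *Acss2* and *P4hb* were lost on leaving out any one of 3 and 7 arrays, and those of *Acss2*, *Slc25a1*, *Fads1* and *P4hb* with median scaling. Those of *Acss2*, *Elovl5* and *Pdia4* were also lost in the model of the 24 groups without the array of set 6. *Calr*, the chaperone calreticulin, fell only without the array of set 6 (-0.44, adjusted p = 0.0393).

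Of 23 measured clock genes, 0 rose and 1 fell with all arrays, *Noct*, and the same count was found without the array of set 6. Over all genes, 1.21% were higher and 0.705% lower with all arrays, and 1.6% and 1.34% without that array. Against the rest of the day *Noct* had an excess of -0.81 (adjusted p = 0.0475), or -0.79 without that array (adjusted p = 0.0807). The repressors *Per1* and *Per2* both differed by -0.12 (adjusted p = 0.767 and 0.732), *Arntl*, the activator also known as BMAL1, by -0.01, and *Nr1d1*, which encodes REV-ERBα, by 0.15 (adjusted p = 0.669). The output factors *Dbp* and *Tef* differed by 0.25 and 0.12 (adjusted p = 0.482 and 0.82). None of 19 heat shock and temperature-linked genes, 20 glucocorticoid-responsive genes, 21 immediate early genes and 25 genes of drug-metabolising P450 enzymes passed the test with all arrays. Without the array of set 6, 1 of the heat shock genes fell, and 1 of the P450 genes rose and 1 fell. Of 25 genes of the feeding, insulin and fasting response, *Creb3l3*, a hepatic transcription factor induced on fasting, rose by 0.29 (adjusted p = 0.042), a call lost on leaving out any one of 9 arrays.

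Of 34 acute phase genes, 0 passed with all arrays. Their median difference was -0.33 with all arrays and -0.06 without the WT array of set 6, and 3 then fell, *Il1r1*, *Itih4* and *Orm1*. *Lcn2* differed by -1.41 ± 1.03 (adjusted p = 0.684) with that array and by -0.21 without it (adjusted p = 0.707), and *Saa1* by -0.46 and 0.38 (adjusted p = 0.895 and 0.396). No marker of neutrophils, Kupffer cells, lymphocytes, stellate cells, endothelial cells or red blood cells passed the test in either setting, while *Oat*, a pericentral hepatocyte marker, rose by 0.43 ± 0.07 with all arrays and by 0.41 without that array, and lost its call with median scaling. Without the array, 1 of 6 periportal hepatocyte markers fell, *Ctsc* (-0.70, adjusted p = 0.00159, and -0.99 with adjusted p = 0.0936 with all arrays), and 2 of the 7 cholangiocyte markers rose. The shares over all genes were then 1.6% higher and 1.34% lower, and 1.21% and 0.705% with all arrays.

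Differences particular to the window were sought by subtracting the mean difference of the other 10 time points, whose arrays come from other mice. With all 72 arrays, 26 genes had a more positive difference at ZT12 and ZT14 (0.157% of genes tested) and 14 a more negative one (0.0844%). Without the WT array of set 6 these numbers were 14 (0.0844%) and 10 (0.0603%), and 15 genes passed in both settings, 9 more positive and 6 more negative. Of the 306 genes called in the window, 282 had the same sign in the rest of the day and 10 passed the difference test in both settings. The share with the same sign was not computed over all genes. The count depended on single arrays: leaving out any one of the 12 other than the KO array of set 6 at ZT14 moved the number of more positive genes by over 1.5 times, from 8 (and 0 more negative) without the WT array of set 9 at ZT14 to 66 (and 35) without that of set 10 at ZT12. With median scaling 1 gene passed, on the positive side, and against the 4 nearest time points alone (ZT8, ZT10, ZT16 and ZT18) also 1, or 0 without the WT array of set 6. In both cases the gene was *Osbpl3*.

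**Figure D3:**
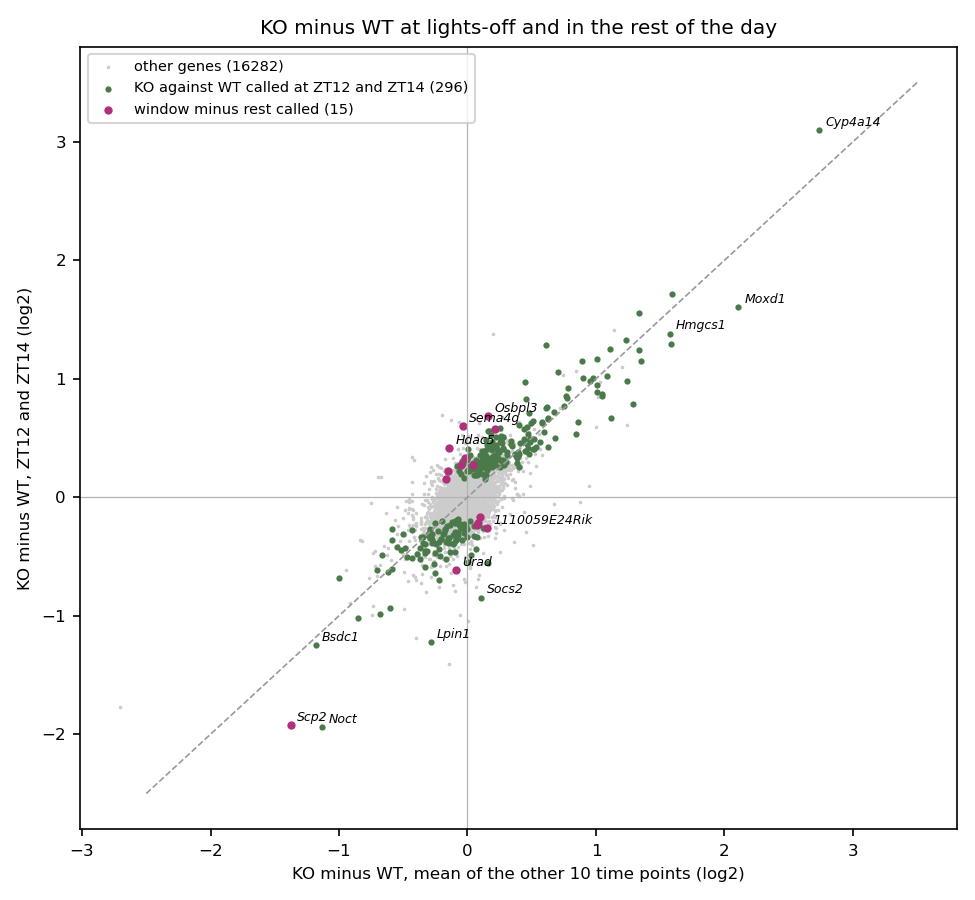
KO minus WT at ZT12 and ZT14 (vertical, log2) against the mean of the other 10 time points (horizontal, log2) for 16593 genes, with a dashed line of equality. Magenta points are the 15 genes past the test of the difference with and without the WT array of set 6, and green points are the other genes of the 306 called in the window, which lie mostly along the line.

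*Osbpl3* had the smallest p of these genes. It encodes a member of the oxysterol-binding protein family, which moves lipids at contacts between the endoplasmic reticulum and other membranes. In WT it was near the dim end of the array at all times, with means of 5.99 to 6.10. In KO it was at 7.25, 6.81 and 6.95 on the arrays of ZT12 and at 6.34, 6.55 and 6.44 on those of ZT14, against 5.94 to 6.12 on the 6 WT arrays, without overlap. The difference was 0.91 at ZT12 and 0.46 at ZT14, 0.39 and 0.37 at ZT8 and ZT10, and 0.27 or less at all other times. The window exceeded the rest by 0.53 (adjusted p = 2.02e-05), or by 0.54 without the WT array of set 6 (adjusted p = 6.6e-05), and against the 4 nearest time points by 0.43 (adjusted p = 0.0306), and the adjusted p of that comparison was 0.0544 without that array. Of its other probes, one rose in the window by 0.27 (adjusted p = 0.0295 over all named probes) with an excess over the rest of 0.17 (adjusted p = 0.224), and the dimmest differed by -0.04.

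*Sema4g*, a membrane semaphorin, had its KO peak at ZT12. It was at 8.39, 8.69 and 9.01 in WT and at 9.10, 9.32 and 9.51 in KO, without overlap. Its difference was 0.80 at ZT12 (0.69 without the array of set 6) and 0.41 at ZT14, and ran from -0.30 to 0.21 at the other times. The excess over the rest was 0.64 (adjusted p = 0.0164).

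*Hdac5*, a class IIa histone deacetylase of glucagon and feeding signals in liver, had the opposite sign in the rest of the day. It was at 7.22, 7.27 and 7.46 in WT and at 7.60, 7.69 and 7.93 in KO, without overlap, and differed by 0.41 ± 0.05 in the window against -0.14 over the other times. In WT it fell to its lowest mean in the window, 7.24 at ZT12 without the array of set 6 and 7.33 at ZT14, whereas the KO mean was lowest at ZT16, at 7.46. The excess was 0.56 (adjusted p = 0.0164), but 0.24 and 0.13 on its other, dimmer probes, with adjusted p of 0.355 and 0.218 over all named probes.

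*Slc25a42*, the mitochondrial carrier of coenzyme A, was lowest in WT at ZT14, with a mean of 7.07, while KO stayed at 7.60 to 7.89 over the whole day. The excess was 0.36 (adjusted p = 0.0499), and leaving out any one of 11 arrays other than that of set 6 ended the call, with adjusted p up to 0.142. *Pitpnm2*, a phosphatidylinositol transfer protein (0.35), *Stk40*, a pseudokinase (0.37), *Eps15l1*, an endocytic adaptor (0.33), *Adcy9*, an adenylyl cyclase (0.32) and *Spo11* (0.22), a meiotic endonuclease measured here near the dim end of the array, made up the 9. The second probe of *Spo11* gave an excess of -0.04 (adjusted p = 0.871 over all named probes). *Stk40* lies 186 measured genes from *Scp2* on chromosome 4. The calls of *Pitpnm2*, *Spo11* and *Stk40* were lost on leaving out any one of 4, 2 and 1 arrays. Of the 9, *Osbpl3*, *Sema4g*, *Hdac5*, *Eps15l1* and *Adcy9* stayed past the test when each of the 12 window arrays was left out in turn.

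On the negative side, *Urad*, an enzyme of urate breakdown to allantoin, was at 7.61, 8.05 and 8.27 in WT and at 7.21, 7.33 and 7.60 in KO. All KO arrays were below all WT arrays, although the highest KO value and the lowest WT value, that of set 6, differed by little. In WT the mean rose from 7.71 at ZT10 to 8.22 at ZT14, and in KO it went from 7.56 to its lowest value of 7.29 at ZT12 and was back at 7.92 at ZT16. The difference was -0.61 ± 0.08 in the window and -0.09 in the rest, an excess of -0.52 (adjusted p = 0.0205), lost without the KO array of set 4 or the WT array of set 9 at ZT14 (adjusted p up to 0.0741).

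*Tom1*, an endosomal adaptor, was at 6.30 to 6.62 in WT and 6.09 to 6.36 in KO, with an excess of -0.30 (adjusted p = 0.0438) that was lost on leaving out any one of 9 arrays. *Nifk*, a nucleolar partner of Ki-67 needed for ribosomal RNA processing, had an excess of -0.31, *Rpp38*, a subunit of RNase P, of -0.26 and *1110059E24Rik*, an uncharacterised gene, of -0.41, with adjusted p of 0.0344 for each. Their calls were lost on leaving out any one of 8, 7 and 5 arrays. The second, dimmer probe of *1110059E24Rik* gave an excess of -0.03 (adjusted p = 0.906 over all named probes). *Scp2* had an excess of -0.55 (adjusted p = 0.0459), lost on leaving out any one of 9 arrays (adjusted p up to 0.124), and by its brightest probe only: the pair of probes that fell to the dim end in KO gave 0.06 and 0.00.

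**Figure D4:**
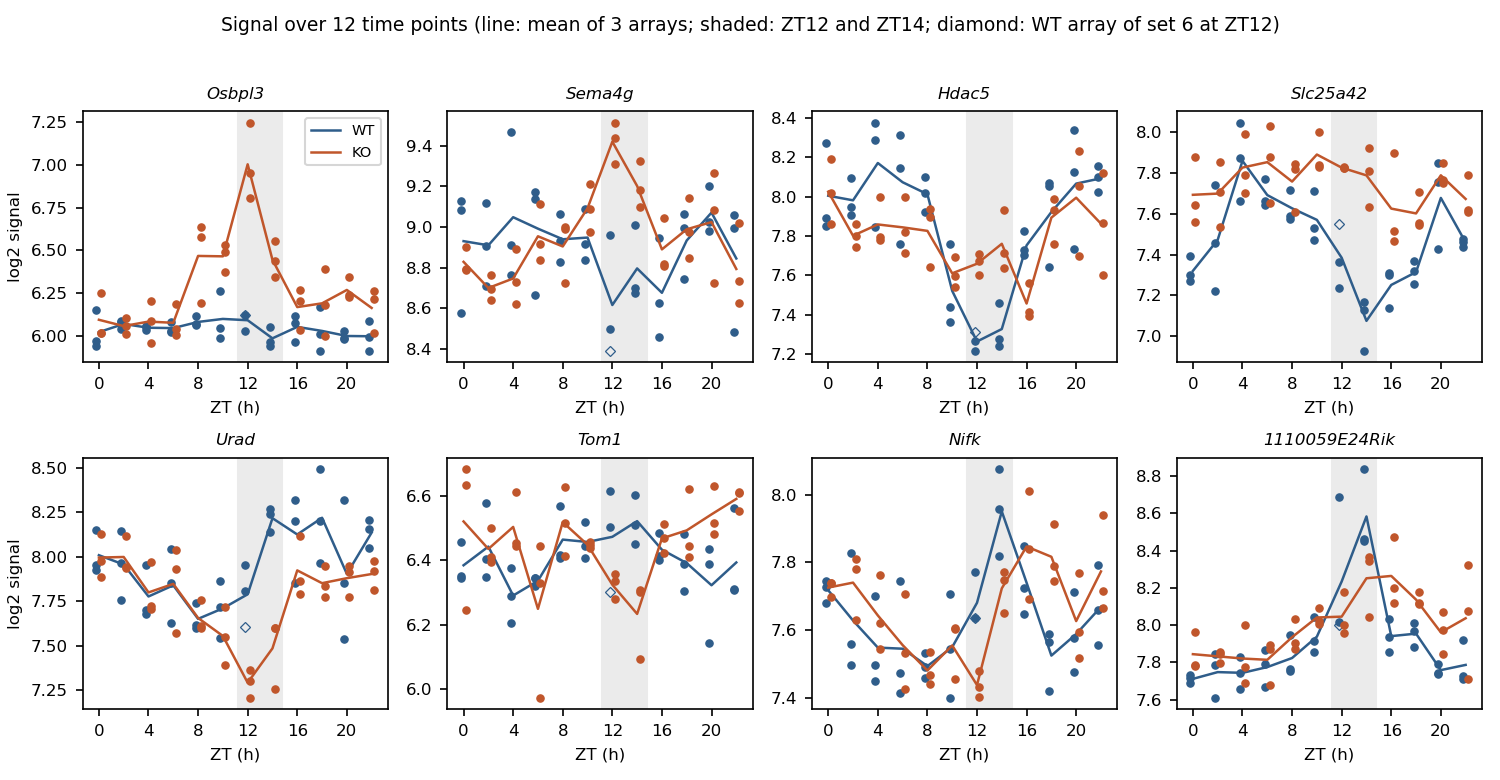
Log2 signal of 8 genes with a window difference over 12 time points (horizontal, ZT in h), with every array as a point, lines through the means of 3 arrays, ZT12 and ZT14 shaded and an open diamond for the WT array of set 6 at ZT12. *Osbpl3* and *Sema4g* peak in KO at ZT12, *Urad* is lowest in KO at ZT12, and *Nifk* and *1110059E24Rik* peak in WT at ZT14 and in KO at ZT16.

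Promoter windows of 3 of these genes are shown, *Osbpl3* because it passed in every single-array setting and *Hdac5* and *Tom1* as 1 gene of each direction with an E-box just after the start, 3 and 16 bases from it. The E-box of *Rpp38* stands 10 bases from its start. Capitals mark the same 5 motifs as above.
*Osbpl3* promoter, chr6:50456121-50456420, minus strand: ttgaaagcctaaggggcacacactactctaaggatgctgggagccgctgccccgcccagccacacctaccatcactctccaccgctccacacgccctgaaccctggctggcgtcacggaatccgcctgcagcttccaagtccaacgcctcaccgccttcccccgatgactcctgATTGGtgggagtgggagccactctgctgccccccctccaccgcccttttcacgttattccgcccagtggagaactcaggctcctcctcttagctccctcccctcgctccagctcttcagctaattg
*Hdac5* promoter, chr11:102230123-102230422, minus strand: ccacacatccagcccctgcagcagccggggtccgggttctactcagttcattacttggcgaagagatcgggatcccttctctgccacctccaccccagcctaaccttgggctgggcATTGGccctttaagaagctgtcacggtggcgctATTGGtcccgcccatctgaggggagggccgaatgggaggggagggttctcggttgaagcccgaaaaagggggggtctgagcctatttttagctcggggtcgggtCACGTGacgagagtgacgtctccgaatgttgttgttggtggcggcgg
*Tom1* promoter, chr8:75033436-75033735, plus strand: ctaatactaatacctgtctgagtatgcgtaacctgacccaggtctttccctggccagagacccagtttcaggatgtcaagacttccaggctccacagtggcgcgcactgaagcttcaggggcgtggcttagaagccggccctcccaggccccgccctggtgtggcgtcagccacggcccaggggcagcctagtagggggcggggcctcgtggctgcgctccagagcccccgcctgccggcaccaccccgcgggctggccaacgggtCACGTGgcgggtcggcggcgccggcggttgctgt
An E-box stood in the windows of 2 of the 8 matched genes with a more positive difference, *Eps15l1* and *Hdac5*, and of 3 of the 6 with a more negative one, *1110059E24Rik*, *Rpp38* and *Tom1*. Of all windows of this length, 7.15% hold one, a share of windows and not of genes, which can have several. The *Osbpl3* window holds a single CCAAT box, read as its reverse complement, and none of the other 4 motifs.

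Of the 28 measured genes of ribosome biogenesis, 5 had a positive difference between the window and the rest of the day, both with and without the array of set 6. The median of the list was -0.07, beside 0.00 over all genes. In the window itself 0 of the 28 rose and 2 fell with all arrays, and 3 fell without the array of set 6, beside 0.705% and 1.34% of all genes that were lower. The calls of *Gnl3* and *Fbl* were lost with median scaling. *Gnl3*, the nucleolar GTPase nucleostemin, was at 9.47, 9.97 and 10.30 in WT and at 9.02, 9.35 and 9.60 in KO, a difference of -0.56 ± 0.10 (adjusted p = 0.0132). *Fbl*, fibrillarin, the methyltransferase of ribosomal RNA, differed by -0.25 ± 0.04 (adjusted p = 0.0024) without overlap, from 8.60 to 8.74 in WT to 8.29 to 8.53 in KO. *Nop56*, a core protein of the same particle, differed by -0.32 without the array of set 6 (adjusted p = 0.00746) and by -0.25 with it (adjusted p = 0.209).

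For *Gnl3* the sign differed between ZT14 and ZT16, a difference that was not tested. The mean of *Gnl3* in WT was highest at ZT14, 10.08, and was 9.14 at ZT16, while in KO it was 9.55 at ZT14 and highest at ZT16, at 9.69. Its difference was -0.53 at ZT14 and 0.55 at ZT16, and the excess of the window over the rest was -0.72 (adjusted p = 0.0499), or -0.77 without the array of set 6 (adjusted p = 0.0525). *Nifk* also had a negative difference at ZT14 and a positive one at ZT16, with a WT mean of 7.95 at ZT14 and 7.74 at ZT16 and a KO mean of 7.72 and 7.85, whereas *Fbl* differed by -0.23 and -0.21. The median difference of the list was -0.06 at ZT12 (-0.09 without the array of set 6) and -0.05 at ZT14, and between 0.00 and 0.07 at each of the other 10 time points, shifts of a few hundredths that were not tested. A change of phase between the genotypes was not tested.

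**Figure D5:**
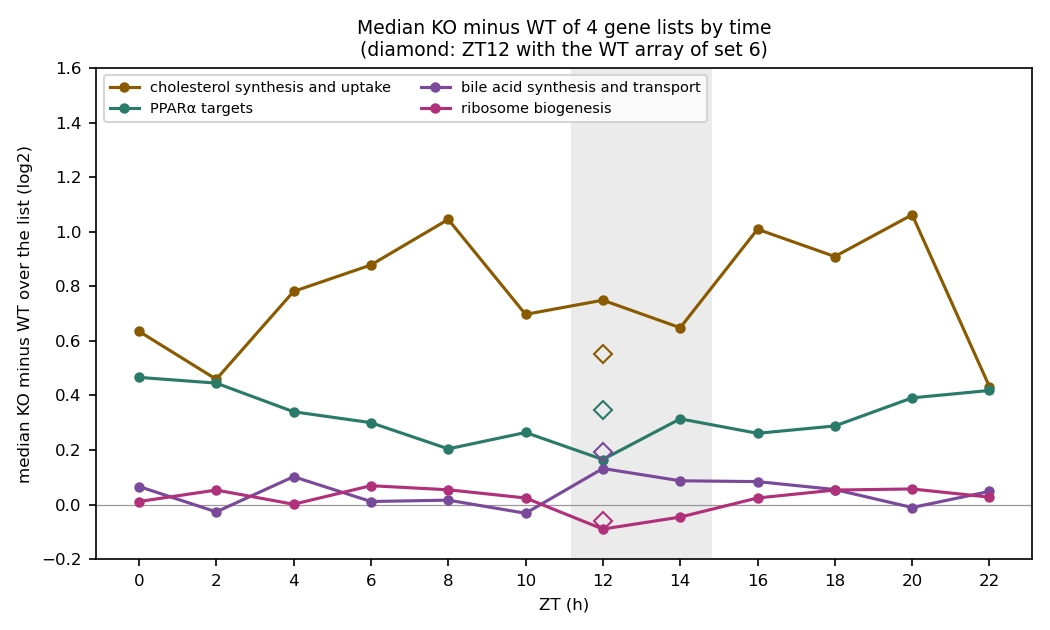
Median KO minus WT (log2) of 4 gene lists at each of 12 time points (horizontal, ZT in h) without the WT array of set 6, with an open diamond for ZT12 with that array and ZT12 and ZT14 shaded. The cholesterol list lies between 0.43 and 1.06 without that array and the PPARα list between 0.165 and 0.466, and the ribosome biogenesis list is at -0.09 and -0.05 at ZT12 and ZT14 and between 0.00 and 0.07 at the other times.

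Genes outside the naming rule also changed their call with the WT array of set 6, and are named after their values were seen. Without it, 9 further genes passed the difference test. These include *Aacs*, the acetoacetyl-CoA synthetase that uses ketone bodies for lipid synthesis, with an excess of -1.16 (adjusted p = 0.0471), and *Plin5*, a lipid droplet coat protein of oxidative tissue, with -0.62 (adjusted p = 0.0196). Both had their lowest WT value on that array, 8.35 and 7.27, and with it the excess was -0.92 (adjusted p = 0.131) and -0.47 (adjusted p = 0.113). With it, 25 genes passed that did not pass without it, among them *Igfbp2*, an insulin-like growth factor binding protein, with 0.89 (adjusted p = 0.0344) against 0.66 without (adjusted p = 0.126).

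The genotype difference at ZT14 was also compared with that at ZT12. With all 12 arrays, 0 of 16593 genes passed this interaction test, with 616 at an unadjusted p under 0.05. Without the WT array of set 6, 1 gene passed, *Bcl6*, a transcriptional repressor opposed to STAT5 in liver, whose difference was lower at ZT14 by 1.40 (adjusted p = 0.0211; with all arrays by 1.17, adjusted p = 0.998), with 768 genes at an unadjusted p under 0.05.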

How the data were processed

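The files hold liver RNA on Illumina mouse BeadChip arrays, 72 arrays in 24 groups of 3 (WT and KO at 12 time points). The authors deposited non-normalised probe signal intensity values from the array scanner, and deposited log2 values that they had normalised, for which the submitters' processing notes name Partek without a version. The column headings of the signal table give an array's genotype, set and time but not the replicate number of its label, so groups and not numbers were used.

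Signal intensities were background corrected (normexp, offset 50), quantile normalised over the 72 arrays and set to log2 in limma 3.58.1 (R 4.3.3). The platform's probe table named 23978 of 25697 probes, and each of 16593 genes was read by its probe of highest mean, of which 16582 matched a current symbol. Probes without a name, 1719, stood outside the comparisons. KO and WT at ZT12 and ZT14 were compared on 12 arrays with genotype and time as terms, and the window was set against the other 10 time points in a model of the 24 groups, with limma and Benjamini-Hochberg adjustment over all genes at 0.05. Each sample is described as one mouse, and no source states how animals were assigned to arrays, so p-values measure the spread between these arrays, whose number limits the precision. Tests were checked on simulated data.

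Named genes were the 10 largest rises and falls called with and without the WT array of set 6 at ZT12, up to 10 genes in each direction of the test against the rest, up to 6 called members of a list, and a few fixed names. Genes described because their call changed without that array were chosen after their values were seen. The comparison, gene lists and rule were chosen with earlier results of these data known. Alternatives were the deposited log2 values, other scaling, filters, thresholds, models and sets of arrays. Promoter sequences and symbols came from RefSeq (GRCm38.p6).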

Additional observations from a re-analysis of the deposited data

Results flagged for a closer look

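In 92 groups of 6 arrays, 1 genotype and 1 named gene each, the array farthest from the rest was set against the range of its group. Of these, 11 stood apart. Chance gives about 1 in 20 for independent groups of even spread. These groups share the same arrays and pool ZT12 with ZT14, so the 11 cannot be read against that share. The WT array of set 6 at ZT12 was singled out by its *Lcn2* and *Saa1*, so its distance on these 2 genes restates how it was chosen. Of the other 9, 6 were this array. It was the highest WT array for *Lcn2* (13.97), *Saa1* (10.94), *Ly6e* (9.83), *Wfdc2* (8.71) and *Moxd1* (7.1), and the lowest for *Cyp8b1* (10.42), *Cyp4a12b* (8.63) and *Tef* (7.28). The KO array of set 4 at ZT14 was the highest KO array for *Hdac5* (7.93) and the lowest for *Tom1* (6.09). The WT array of set 10 at ZT12 was the highest for *Nr1d1* (7.18).

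The difference between KO and WT in the window departed from that of the other 10 time points, by the limma test of the difference with and without the WT array of set 6, for 15 genes. It was more positive for *Sema4g* (0.64), *Hdac5* (0.56), *Osbpl3* (0.53), *Stk40* (0.37), *Slc25a42* (0.36), *Pitpnm2* (0.35), *Eps15l1* (0.33), *Adcy9* (0.32) and *Spo11* (0.22). It was more negative for *Scp2* (-0.55), *Urad* (-0.52), *1110059E24Rik* (-0.41), *Nifk* (-0.31), *Tom1* (-0.3) and *Rpp38* (-0.26).

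Of the 1719 probes without a gene name, which no comparison used, 28 passed the window test with and without the same array, 14 higher and 14 lower in KO. Among the 16593 named genes, 306 passed in both settings, or 1.84%, so the unnamed probes do not stand out by this count.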

How the results depend on the processing

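Of the 72 named differences, none that passed its test changed direction under the alternatives run. Those of 6 named genes that did not pass took both signs: *Saa1* (from -1.5 to 0.59), *Srebf1*, *Ppara*, *Nr1d1*, *Tef* and *Arntl*. The direction of the other genes was not followed over the alternatives. With all arrays 201 genes were higher and 117 lower, 26 and 14 differed from the rest of the day, and 0 passed the interaction test. Without the WT array of set 6 at ZT12, 223 were lower, 14 exceeded the rest and 1 passed the interaction test. Median scaling gave 98 higher and 42 lower, and 1 and 0 against the rest. Array weights gave 176 lower, and leaving out dim genes 40 above the rest. At an adjusted p under 0.01 there were 81 and 36, with 1 and 0 against the rest, and under 0.1 there were 309 and 208, with 72 and 45. The model of 24 groups gave 350 and 257 (212 lower without that array). ZT12 alone gave 12 and 4 (53 and 25 without that array), ZT14 alone 106 and 75, and a fit with no time term 67 lower. Against the 4 nearest time points 1 and 0 genes passed (0 and 0 without that array). Leaving out each array in turn gave 134 to 265 higher, 69 to 223 lower, 8 to 66 and 0 to 35 against the rest, and 0 to 1 for the interaction. The cause of these changes was not tested. The fits without that array of the 24 groups, of ZT12 alone and of the 4 nearest time points, and the list medians without background correction, were chosen after seeing the data. Deviations of same-numbered KO and WT samples from their group means had correlations of 0 to 0.34. These were not set against differently numbered samples, so whether the labels' numbers pair them was not settled. With the replicate block, on the deposited values, 177 were higher and 98 lower, and 38 and 20 differed from the rest. Without the block these values gave 184, 106, 26 and 14. Of 72 named differences, 37 lost their call with median scaling, 5 with the deposited values and 8 with the replicate block. The 72 include differences that had no call to lose. Dim probes limit what can be read for *Moxd1*, *Osbpl3*, *Spo11* and *Alb*.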
